A study of Homo sapiens and Mus musculus with 21 samples.

Results

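The genes described here are those whose transcript response to GSK126 differed between 2 human mesothelioma lines. Mesothelioma is a tumour of the lining of the chest, and the labels give the pleura as the tissue. H2731 is labelled as mutated for Bap1 and H2810 as wildtype for it. Each line was sequenced with GSK126, an inhibitor of the histone methyltransferase EZH2, and with its vehicle DMSO, which gives 4 groups of 2 libraries: H2731 with GSK126, H2731 with DMSO, H2810 with GSK126 and H2810 with DMSO. These 8 libraries are part of a series of 21, and the other libraries were not used. For every gene, the log2 change with GSK126 over DMSO in H2731 was set against the same change in H2810, and the difference is the change in H2731 minus the change in H2810. Of 60674 genes in the table, 15999 had enough counts to be tested, and 2358 were called, that is, had a difference with a Benjamini-Hochberg adjusted p under 0.05 in edgeR's quasi-likelihood test. The sources used here give neither the dose nor the duration of treatment.

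EZH2 is the catalytic subunit of the Polycomb complex PRC2, which methylates lysine 27 of histone H3 and keeps developmental genes silent. BAP1 is the catalytic subunit of the deubiquitinase complex PR-DUB, which removes the ubiquitin that PRC1, the other Polycomb complex, places on histone H2A. BAP1 is often mutated in mesothelioma, and GSK126 lowers histone H3 lysine 27 methylation by competing with the methyl donor of EZH2. Here the genotype and the line cannot be told apart, because each genotype is represented by a single line. The labels do not say whether the libraries of a group came from separate cultures, so the p-values measure the spread between these libraries, which may be technical.

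The 8 libraries held 17927837 to 22927239 counts. edgeR's common dispersion had a square root of 0.0311, and chi-square per degree of freedom between the 2 libraries of a group was 4.57 in H2731 with GSK126, 2.91 in H2731 with DMSO, 2.32 in H2810 with GSK126 and 7.82 in H2810 with DMSO. Among 20 mesothelial markers, 12 had over 10 counts in H2731 and 11 in H2810, and UPK1B was at 0 in every library. KRT19, UPK3B and KRT7 were high in H2731 and low in H2810, and ITLN1, PDPN and CALB2 the reverse. The summed level of these markers was 6263 to 6360 CPM (counts scaled to a common library size) in H2731 with GSK126, 7422 to 8045 CPM in H2731 with DMSO, 3449 to 3481 CPM in H2810 with GSK126 and 4638 to 4777 CPM in H2810 with DMSO. Leukocyte markers summed to 3.90 to 8.39 CPM over all libraries, with CD3E at 0. Of these 11 markers, 4 had over 10 counts in each group of H2731 and 5 in each of H2810, among them PTPRC and ADGRE1. Endothelial markers summed to 2.54 to 2.97 CPM in H2731 with GSK126 and 2.26 to 2.73 CPM in H2731 with DMSO. In H2810 they summed to 23.8 to 25.1 CPM with GSK126 and 15.7 to 15.9 CPM with DMSO, with CLDN5 at 0 in all libraries. Of the 6 endothelial markers tested, 3 rose and 1 fell in H2810. Fibroblast markers, which mesenchymal tumour cells also express, summed to 917 to 936 CPM in H2731 with GSK126, 1051 to 1107 CPM in H2731 with DMSO, 9033 to 9306 CPM in H2810 with GSK126 and 9813 to 10969 CPM in H2810 with DMSO, with DPT at 0. The part of other cells in the results below was not tested. In RNA from whole cultures, fewer cells with a transcript and less of it per cell cannot be told apart.

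The called genes were 14.7% of those tested: 1292 had a higher response in H2731 (8.08%) and 1066 a lower one (6.66%). Most differences were small, with a median size of 0.42 on the log2 scale and quartiles of 0.28 and 0.67. A difference of at least 1 was found for 127 higher and 151 lower genes. Protein-coding genes made up 2288 of the calls, of 13334 tested, and long non-coding RNAs 49 of 1770 tested. Leaving out any library left 1688 to 2269 calls, and DESeq2 made 1401, of which 1400 were also called by edgeR with the same sign.

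Each line also had its own response. In H2731, 2210 genes rose (13.8%) and 1749 fell (10.9%), and in H2810, 2610 rose (16.3%) and 2071 fell (12.9%). Leaving out any library of a line gave fewer rises and fewer falls in that line. Such a fit keeps 1 library in a group, so dependence on a given library was not tested. DESeq2 gave 1391 rises and 732 falls in H2731 and 1570 rises and 1213 falls in H2810. These counts serve to sort the 2358 genes by what each line did. The responses and the difference share the same libraries, so the sorting is a description.

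Among the 1292 genes with a higher response in H2731, 429 rose in H2731 and were not called in H2810, and 419 fell in H2810 and were not called in H2731. Another 236 rose in H2731 and fell in H2810, 117 rose in both lines but more in H2731, 51 fell in both but less in H2731, and 40 were called in neither line. Among the 1066 genes with a lower response, 524 rose in H2810 and were not called in H2731, 232 fell in H2731 and were not called in H2810, and 144 rose in both lines but more in H2810. A further 129 fell in H2731 and rose in H2810, 31 were called in neither line, and 6 fell in both but more in H2731.  The count of 129 was 65 without H2731 GSK126 replicate 2, 71 without H2731 DMSO replicate 1, 81 and 84 without H2810 GSK126 replicates 1 and 2, and 36 with DESeq2, which gave 139 in place of 236 for the other direction.

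**Figure D1:**
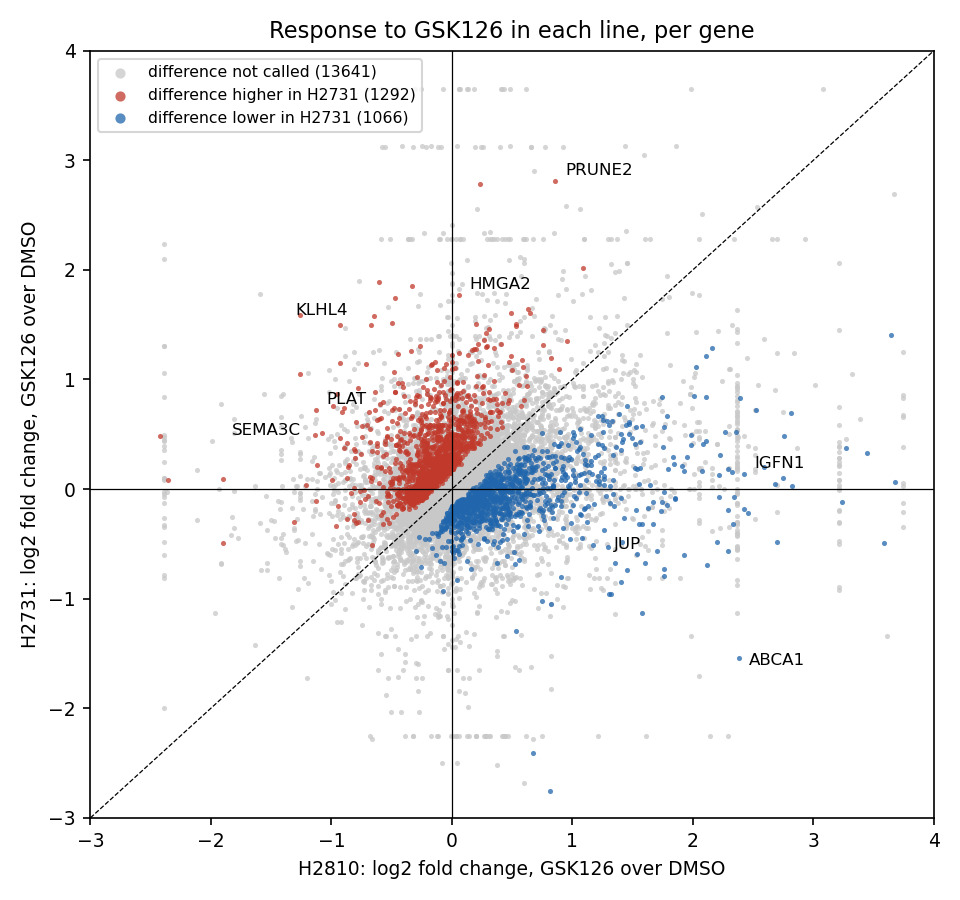
Log2 fold change with GSK126 over DMSO in H2731 (vertical axis) against that in H2810 (horizontal axis), 1 point per tested gene, with the 1292 genes called higher in H2731 in red and the 1066 called lower in blue. Points on the dashed diagonal have equal responses; ABCA1 lies at the lower right, and PLAT and SEMA3C at the upper left. Of the tested genes, 91 lie outside the plotted range.

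Among the genes that rose in H2731 and fell in H2810, PLAT, CPA4 and SEMA3C, all secreted proteins, had differences well above their errors. PLAT (ENSG00000104368, chromosome 8, 42174718 to 42207709 in the table's coordinates) encodes the tissue plasminogen activator, which starts fibrin breakdown. Its counts were 1982 and 2115 in H2731 with GSK126 and 1437 and 1110 in H2731 with DMSO, against 839 and 819 in H2810 with GSK126 and 1607 and 1929 in H2810 with DMSO. The treated libraries were thus the high ones in H2731 and the low ones in H2810, with no overlap. The response was 0.72 ± 0.05 in H2731 and -1.13 ± 0.05 in H2810 (log2, ± SE), a difference of 1.85 ± 0.07 (edgeR adjusted p = 1.97e-12). CPA4 encodes a zinc carboxypeptidase and had 5820 and 6149 counts in H2731 with GSK126 and 3507 and 2962 in H2731 with DMSO. In H2810 it had 1953 and 1887 counts with GSK126 and 3009 and 3427 with DMSO, so the difference was 1.70 ± 0.06. SEMA3C, a secreted semaphorin that binds neuropilins and plexins, had 2294 and 2446 counts in H2731 with GSK126 and 1843 and 1609 in H2731 with DMSO. Its counts in H2810 were 1830 and 1901 with GSK126 and 3674 and 4320 with DMSO, and the difference was 1.62 ± 0.06. All 3 were called under every alternative examined.

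Other genes of this kind, like PLAT and SEMA3C, had lower counts in H2731 than in H2810 under DMSO. KLHL4, a kelch-like protein, had 144 and 173 counts in H2731 with GSK126 and 66 and 49 in H2731 with DMSO, against 882 and 904 in H2810 with GSK126 and 1242 and 1543 in H2810 with DMSO (difference 2.17 ± 0.15). IL18, an inflammatory cytokine of the interleukin-1 family, had 40 and 34 counts in H2731 with GSK126 and 20 and 14 in H2731 with DMSO, and 1132 and 1056 in H2810 with GSK126 and 1984 and 2080 in H2810 with DMSO (2.08 ± 0.31). The gap between the lines narrowed with GSK126 for both genes. SULF1 and SULF2, endosulfatases that trim heparan sulfate outside the cell, had differences of 1.68 ± 0.08 and 1.64 ± 0.24. For SULF1, the counts were 366 and 377 in H2731 with GSK126 and 165 and 158 in H2731 with DMSO, against 12837 and 12877 in H2810 with GSK126 and 15474 and 18870 in H2810 with DMSO. RIPOR2 (2.22 ± 0.57) and COL6A3 (2.18 ± 0.49), a chain of collagen VI, belong here too, but their H2731 libraries held only 2 to 32 counts. The call of RIPOR2 was lost without H2731 GSK126 replicate 1 (adjusted p = 0.113) and without H2731 DMSO replicate 2 (0.0544), and that of COL6A3 with limma-voom (0.0564).

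The most negative difference among the genes chosen by the naming rule was that of ABCA1, which fell in H2731 and rose in H2810. It encodes the transporter that exports cholesterol to apolipoproteins (ENSG00000165029, chromosome 9, 104781006 to 104928155). Counts were 13 and 17 in H2731 with GSK126 and 44 and 46 in H2731 with DMSO, against 552 and 576 in H2810 with GSK126 and 95 and 116 in H2810 with DMSO. Both treated libraries of H2731 were lower, and both of H2810 higher, than their DMSO libraries. The response was -1.54 ± 0.25 in H2731 and 2.38 ± 0.09 in H2810, and the difference of -3.93 ± 0.27 (edgeR adjusted p = 3.34e-09) ran from -4.11 to -3.77 over the alternatives.

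JUP, or plakoglobin, which links cadherins to the cytoskeleton in desmosomes and adherens junctions, moved the same way from a higher level. It had 2826 and 2955 counts in H2731 with GSK126 and 4207 and 3472 in H2731 with DMSO, against 3348 and 3472 in H2810 with GSK126 and 1269 and 1511 in H2810 with DMSO. The difference was -1.63 ± 0.06 (edgeR adjusted p = 2.2e-13). ADGRL2, a latrophilin of the adhesion receptor family, had 1121 and 1195 counts in H2731 with GSK126 and 1382 and 1232 in H2731 with DMSO. In H2810 it had 546 and 571 counts with GSK126 and 143 and 173 with DMSO, which gave -1.93 ± 0.09. The raw counts of ADGRL2 in H2731 lie close together, and its response there, -0.14 ± 0.05, was small beside 1.79 ± 0.08 in H2810. ID4, an inhibitor of basic helix-loop-helix factors, differed by -1.72 ± 0.14, and ELFN1, a leucine-rich synaptic protein, by -1.87 ± 0.25. HSPA2, a chaperone of the HSP70 family, differed by -1.31 ± 0.14, and RCOR2, a corepressor, by -2.20 ± 0.48. SCX, a tendon transcription factor, differed by -1.52 ± 0.40 and was not called without H2810 GSK126 replicate 1 (adjusted p = 0.0621).

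**Figure D2:**
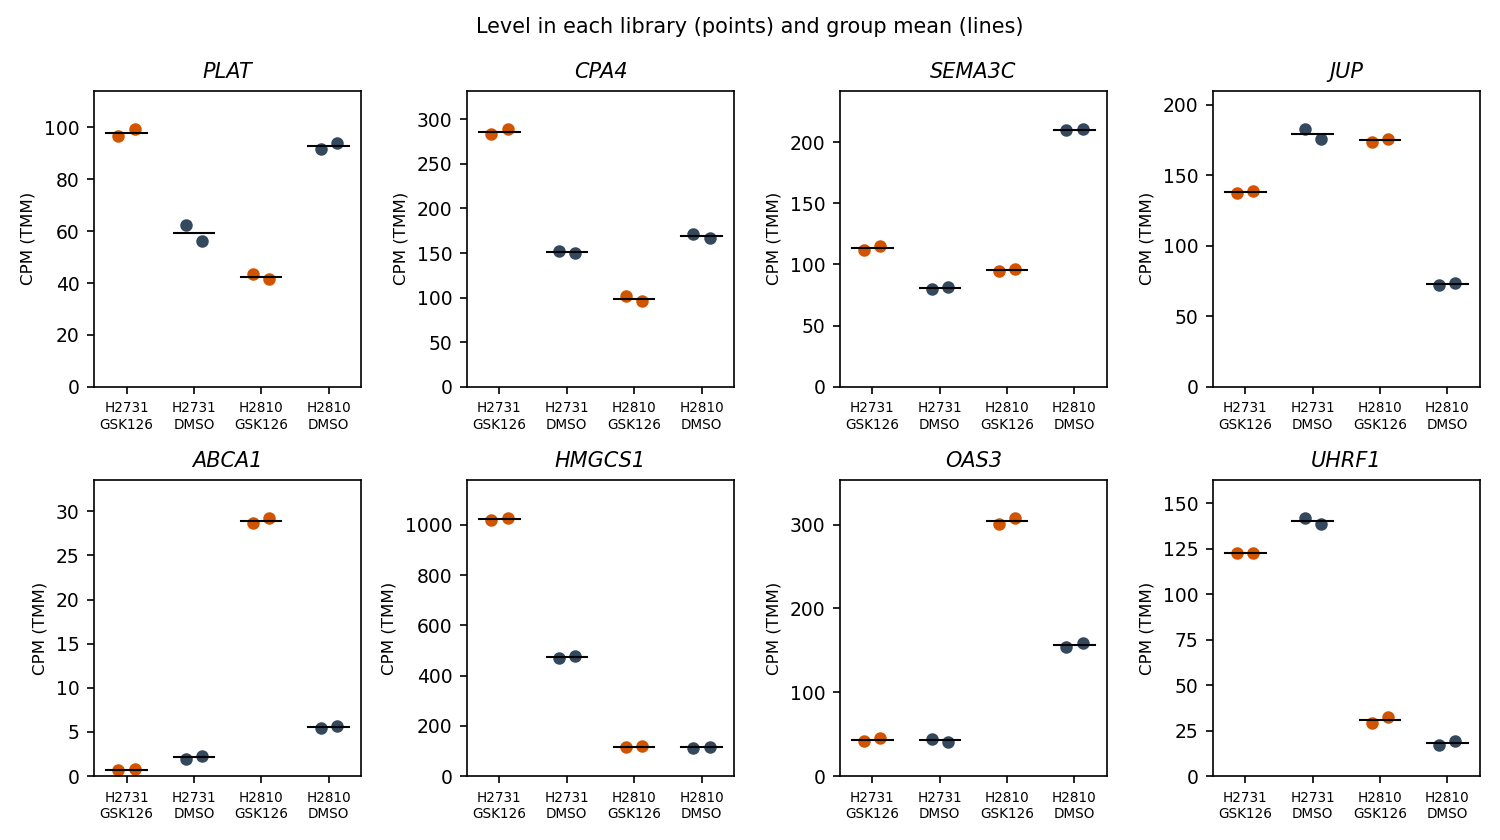
Level of 8 genes in CPM (vertical axes, from 0) in each of the 8 libraries (points), with the mean of each group as a line; H2731 with GSK126, H2731 with DMSO, H2810 with GSK126 and H2810 with DMSO run from left to right. PLAT, CPA4 and SEMA3C are higher with GSK126 in H2731 and lower with it in H2810, and JUP and ABCA1 do the opposite.

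Some genes rose in H2731 and did so less, or were not called, in H2810. PRUNE2 rose in both lines, by 2.81 ± 0.09 in H2731 and 0.86 ± 0.14 in H2810. It had 917 and 1069 counts in H2731 with GSK126 and 143 and 146 in H2731 with DMSO, against 182 and 195 in H2810 with GSK126 and 103 and 100 in H2810 with DMSO (difference 1.96 ± 0.18). HMGA2, a chromatin architectural protein of embryonic and tumour cells, had 112 and 122 counts in H2731 with GSK126 and 37 and 33 in H2731 with DMSO. Its 484 and 531 counts in H2810 with GSK126 and 427 and 523 in H2810 with DMSO overlapped, and the difference was 1.71 ± 0.18. Lipid genes also rose more in H2731: ELOVL6, a fatty acid elongase, by 1.51 in H2731 and 0.20 in H2810, and ACSS2, which makes acetyl-CoA from acetate, by 1.42 in H2731 and 0.29 in H2810. LBH, a transcription cofactor, rose by 1.46 in H2731 and 0.31 in H2810.

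Several genes rose strongly in H2810 and were not called in H2731. IGFN1, a protein with immunoglobulin and fibronectin domains, had 3875 and 3531 counts in H2731 with GSK126 and 3357 and 3503 in H2731 with DMSO, against 1520 and 1446 in H2810 with GSK126 and 282 and 255 in H2810 with DMSO. The H2731 groups were close, while the H2810 groups stood far apart, and the difference was -2.29 ± 0.14 (edgeR adjusted p = 6.33e-10). CXADR, the coxsackievirus and adenovirus receptor of tight junctions, had 1411 and 1471 counts in H2731 with GSK126 and 1629 and 1492 in H2731 with DMSO. It had 107 and 94 counts in H2810 with GSK126 and 24 and 30 in H2810 with DMSO, which gave -1.94 ± 0.19. ERVFRD-1, the envelope gene of an endogenous retrovirus known as syncytin-2, was in contrast the higher one in H2810. It had 19 and 27 counts in H2731 with GSK126 and 43 and 16 in H2731 with DMSO, against 943 and 928 in H2810 with GSK126 and 165 and 196 in H2810 with DMSO (-2.66 ± 0.34).

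Pregnancy-specific glycoproteins are secreted placental proteins of the CEA family. Of 10 such genes tested, PSG3, PSG4 and PSG9 were called, all lower in H2731. PSG3 and PSG9 rose in H2810 and were not called in H2731, while PSG4 rose in both lines, with PSG4 at 1796 and 1822 counts in H2731 with GSK126 and 1848 and 1477 in H2731 with DMSO. PSG4 had 460 and 463 counts in H2810 with GSK126 and 83 and 96 in H2810 with DMSO (-2.17 ± 0.11). The summed level of the 10 genes was 783 and 791 CPM in H2731 with GSK126, 708 and 709 CPM in H2731 with DMSO, 27.2 and 28.6 CPM in H2810 with GSK126 and 5.5 and 5.9 CPM in H2810 with DMSO. These genes are near-identical neighbours on chromosome 19, and the sources used here do not say how reads with several matches were counted, so the split between them is uncertain. The family was singled out after its values were seen.

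KIF26B, a kinesin, rose by 0.49 in H2731 and 2.76 in H2810 (difference -2.27 ± 0.25), and PPARGC1A, a coactivator of mitochondrial genes, by 0.69 in H2731 and 2.81 in H2810 (-2.12 ± 0.30). GDF15, a stress-induced cytokine, had 696 and 716 counts in H2731 with GSK126 and 651 and 515 in H2731 with DMSO, against 84 and 75 in H2810 with GSK126 and 12 and 21 in H2810 with DMSO (-1.91 ± 0.24). SCG2, a secretogranin of neuroendocrine granules, was not called in H2731 (-0.12) and rose by 1.74 in H2810, a difference of -1.86 ± 0.23. Falls shared by both lines were rarer. The placental alkaline phosphatases ALPP (1.003 ± 0.06) and ALPG (1.41 ± 0.27) fell more in H2810. ALPP had 1961 and 2110 counts in H2731 with GSK126 and 2826 and 2320 in H2731 with DMSO, against 938 and 967 in H2810 with GSK126 and 2094 and 2506 in H2810 with DMSO. ALPP and ALPG are near-identical, so the reads of one may be counted for the other. The 6 genes that fell in both lines and more in H2731 were NIBAN2, PPME1, COL6A1, MAP3K14, BCL9L and PLXNB2, with differences of -0.32 to -0.17. NIBAN2, COL6A1 and BCL9L were not called after the correction for GC content and length (adjusted p = 0.385, 0.198 and 0.193).

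Some large fitted differences rested on very few counts in 1 line. GRAMD2A had 170 and 181 counts in H2731 with GSK126, 209 and 190 in H2731 with DMSO, none in H2810 with GSK126 and 6 and 5 in H2810 with DMSO. With 3 counts over the group as the floor, its level in H2810 with GSK126 was 0.266 of that with DMSO. Such a floored ratio leaves out the counting error of the other group, so it is not a strict bound. RGS4, a brake on G protein signalling, had 3 and 4 counts in H2731 with GSK126 and none in H2731 with DMSO, against 2796 and 2830 in H2810 with GSK126 and 3397 and 3858 in H2810 with DMSO. With the same floor, the RGS4 level in H2731 with GSK126 was 2.39-fold that with DMSO, and the call was lost without H2731 DMSO replicate 1. AC245297.1 and COPZ2, a coatomer subunit, were also at 0 in H2731 with DMSO. They had 7 and 6 counts in all in H2731 with GSK126, which with the floor was 2.39-fold and 2.05-fold higher. Their calls were lost in 4 and 6 alternatives. ARHGEF4, a guanine nucleotide exchange factor, had 224 and 259 counts in H2731 with GSK126 and 260 and 274 in H2731 with DMSO, and 16 and 15 in H2810 with GSK126 and 2 and 1 in H2810 with DMSO. Its ratio in H2810 was 10.1 (exact 95% interval 3.14 to 51.5, counting error only). GPC4, PHACTR1, GPX3, FNDC1, PSG3 and PLXNB3 likewise had 1 to 3 counts in all in H2810 with DMSO and 8 to 22 in H2810 with GSK126. The ratio in H2810 was 11.7 (1.73 to 500.4) for GPC4, 7.80 (1.05 to 346) for PHACTR1 and 7.80 (1.83 to 70.0) for GPX3. It was 6.83 (2.04 to 35.8) for FNDC1, 7.15 (2.15 to 37.3) for PSG3 and 5.37 (1.17 to 49.8) for PLXNB3. Each of these 6 calls was lost when some library of H2810 was left out. In all, 88 of the 2358 called genes had under 10 counts in some library, and 2270 had at least 10 in every library.

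Genes of sterol synthesis mostly had a higher response in H2731. Cells make cholesterol from acetyl-CoA through the mevalonate pathway, whose enzymes are switched on together by SREBP factors when sterol is short, while LXR factors switch on export when sterol is plentiful. Of 32 sterol synthesis and SREBP target genes tested, 21 had a higher response in H2731 and 1 a lower one, with a median difference of 0.43, beside 8.08% higher, 6.66% lower and a median of -0.0046 over all genes tested. In H2731, 30 of the 32 rose and 1 fell, and in H2810, 16 rose and 4 fell. All 21 rose in H2731, and in H2810 8 of them rose, 9 were not called and 4 fell. The list's summed level was 15964 and 16104 CPM in H2731 with GSK126, 10398 and 10140 CPM in H2731 with DMSO, 5700 and 5741 CPM in H2810 with GSK126 and 4430 and 4545 CPM in H2810 with DMSO.

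HMGCS1, which makes HMG-CoA at the head of the pathway, had 20907 and 21835 counts in H2731 with GSK126 and 10814 and 9480 in H2731 with DMSO. In H2810 it had 2212 and 2351 counts with GSK126 and 1988 and 2376 with DMSO, where the groups overlap. Its response was 1.11 ± 0.03 in H2731 and 0.03 ± 0.04 in H2810, a difference of 1.08 ± 0.05 (edgeR adjusted p = 1.77e-11). The squalene synthase FDFT1 (0.76 ± 0.05), the squalene epoxidase SQLE (0.45 ± 0.05) and the methylsterol oxidase MSMO1 (0.93 ± 0.06) act further along the same path and were also called. SREBF1, which encodes the SREBP-1 factor and is itself an LXR target, was the 1 lower gene: it had 2652 and 2431 counts in H2731 with GSK126 and 3258 and 2659 in H2731 with DMSO, against 3926 and 4107 in H2810 with GSK126 and 1979 and 2513 in H2810 with DMSO (-0.99 ± 0.07).

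The exporter ABCA1 went the other way, with a few other LXR targets. Of 12 LXR targets and cholesterol efflux genes tested, 4 had a lower response in H2731 and none a higher one: ABCA1, described above, LPCAT3 (-0.43 ± 0.07), which remodels phospholipids, MYLIP (-0.68 ± 0.13), a ubiquitin ligase, and SMPDL3A (-0.49 ± 0.15). The list's median difference was -0.31. SMPDL3A lost its call with DESeq2 (adjusted p = 0.252) and in 9 other alternatives, and the other 3 kept theirs in all that were run.

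NRF2 is the factor that answers oxidative stress. Of 19 NRF2 targets tested, 12 had a higher response in H2731 and none a lower one, with a median difference of 0.32. In H2731, 14 rose and none fell, and in H2810, 5 rose and 8 fell. GCLM, a subunit of the enzyme that limits glutathione synthesis, had 2664 and 2735 counts in H2731 with GSK126 and 1995 and 1775 in H2731 with DMSO. In H2810 it had 3897 and 4045 counts with GSK126 and 3327 and 4042 with DMSO, where it was not called, and the difference was 0.48 ± 0.06. The aldo-keto reductase AKR1C1 had 109 and 93 counts in H2731 with GSK126 and 67 and 45 in H2731 with DMSO, against 14639 and 14989 in H2810 with GSK126 and 20961 and 24082 in H2810 with DMSO (1.52 ± 0.14). AKR1C2 (0.71 ± 0.09), which was not called in H2731, and AKR1C3 (0.996 ± 0.07) were also higher, but the 3 genes are close copies. NQO1, a widely used NRF2 marker, had the smallest difference of those called, 0.14 ± 0.04 (edgeR adjusted p = 0.0416), and was not called with DESeq2 (0.11), after the GC and length correction (0.096) or in 7 other alternatives.

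YAP and TAZ are coactivators held in check by the Hippo pathway, which is often disrupted in mesothelioma, and they act on genes through TEAD factors. Of 26 YAP/TEAD target genes tested, 14 had a higher response in H2731 and 4 a lower one, with a median difference of 0.26. In H2731, 12 rose and 6 fell, and in H2810, 7 rose and 13 fell. Among the 14 higher genes, 7 rose in H2731 and fell in H2810. CCN2, the matricellular connective tissue growth factor, had 2196 and 2156 counts in H2731 with GSK126 and 1584 and 1331 in H2731 with DMSO, against 12834 and 13326 in H2810 with GSK126 and 20519 and 23747 in H2810 with DMSO. It rose by 0.61 ± 0.04 in H2731 and fell by 0.80 on the log2 scale in H2810 (difference 1.41 ± 0.05, edgeR adjusted p = 6.6e-13). ANKRD1, a nuclear ankyrin-repeat protein, had 1986 and 2057 counts in H2731 with GSK126 and 908 and 820 in H2731 with DMSO, against 5818 and 5902 in H2810 with GSK126 and 6769 and 7667 in H2810 with DMSO (1.596 ± 0.06). TGFB2, the ligand transforming growth factor beta 2, differed by 1.57 ± 0.10, and DLC1, a GTPase-activating protein and tumour suppressor, by 0.68 ± 0.07. The 4 lower genes were the kinase NUAK2 (-0.60 ± 0.18), the Hippo scaffold WWC1 (-0.61 ± 0.07), FJX1 (-0.37 ± 0.12) and the exchange factor ARHGEF17 (-0.41 ± 0.06). NUAK2 and FJX1 lost their calls in several alternatives, DESeq2 and limma-voom among them, which left 2 lower genes.

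The promoters of CCN2 and ANKRD1 are shown because both genes moved in opposite directions and carry the letters GGAATG, which TEAD factors bind, in the 250 bases before the start of the transcript. Each sequence is from RefSeq (GRCh38.p14), written 5′ to 3′ on the strand of the gene, with GGAATG or its reverse CATTCC in capitals. CCN2 lies at chr6:131951373-131951622 and ANKRD1 at chr10:90921088-90921337, both on the minus strand.
CCN2: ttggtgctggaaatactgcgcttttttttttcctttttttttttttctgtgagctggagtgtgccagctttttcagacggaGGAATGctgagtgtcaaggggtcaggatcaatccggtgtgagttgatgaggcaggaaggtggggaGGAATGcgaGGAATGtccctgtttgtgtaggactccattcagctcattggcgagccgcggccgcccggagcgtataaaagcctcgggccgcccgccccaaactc
ANKRD1: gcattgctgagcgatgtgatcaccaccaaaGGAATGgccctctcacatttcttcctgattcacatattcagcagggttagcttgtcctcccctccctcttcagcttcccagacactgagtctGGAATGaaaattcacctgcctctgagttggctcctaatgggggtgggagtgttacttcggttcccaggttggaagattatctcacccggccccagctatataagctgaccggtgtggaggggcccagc
CCN2 holds 3 matches and ANKRD1 2. In the full windows of 300 bases, which run to 50 bases past the start, 15.2% of the 11288 tested genes with an entry held a match on either strand, as did 18.3% of the genes called higher and 14.9% of those called lower. Of the YAP/TEAD targets, 6 of the 11 called higher with an entry held it (54.5%), beside 10 of 19 tested (52.6%). A match is a description of the letters and not a measured binding site.

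Mesenchymal genes, which encode matrix and cytoskeletal proteins and the factors of epithelial to mesenchymal transition, were more often higher in H2731. Of 29 tested, 14 had a higher response and 2 a lower one, with a median difference of 0.33. In H2731, 14 rose and 2 fell, and in H2810, 9 rose and 12 fell. The summed fibroblast markers given above were lower with GSK126 in both lines, and their part was not tested. FN1, or fibronectin, had 8919 and 10480 counts in H2731 with GSK126 and 7521 and 6645 in H2731 with DMSO, against 304259 and 329871 in H2810 with GSK126 and 344776 and 508588 in H2810 with DMSO (0.94 ± 0.10). The DMSO libraries of H2810 differ from each other by more than the others do. FBN1, a microfibril protein (1.06 ± 0.10), THBS1, a thrombospondin (0.73 ± 0.06), and VIM, the intermediate filament vimentin (0.54 ± 0.06), were called as well. The 2 lower genes, THBS2 (-0.21 ± 0.05) and the membrane protease MMP14 (-0.19 ± 0.06), rose in both lines, and both calls were lost in some alternatives.

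Of 26 collagen genes tested, 5 were higher and 4 lower (19.2% and 15.4%, beside 8.08% and 6.66% over all genes tested). Only 2 were higher with limma-voom and 2 lower after the GC and length correction. COL8A1, a short-chain collagen, had 302 and 347 counts in H2731 with GSK126 and 322 and 248 in H2731 with DMSO, against 13235 and 13574 in H2810 with GSK126 and 25600 and 31423 in H2810 with DMSO (1.34 ± 0.08). The basement membrane chains COL4A1 (-0.43 ± 0.07) and COL4A2 (-0.34 ± 0.07) were lower. Mesothelial markers had 6 higher and none lower of 14 tested (42.9% higher), and keratins 3 higher and none lower of 11 (27.3% higher). KRT7, KRT8 and KRT18 are in both lists. Of the mesothelial markers, 2 rose and 5 fell in H2731, and 1 rose and 7 fell in H2810. Of the keratins, 1 rose and 6 fell in H2731, and none rose and 4 fell in H2810. KRT19 and UPK3B had fewer counts with GSK126 in H2731 but 0 or 1 in each library of H2810, too few to show a response there. CDH2 is counted as higher among both mesothelial and mesenchymal genes, and COL3A1, COL5A1 and COL6A3 among both mesenchymal and collagen genes. KRT8 and KRT18, the paired keratins of simple epithelia, fell in both lines and less in H2731, with differences of 0.32 ± 0.05 and 0.36 ± 0.06. CALB2, or calretinin, a diagnostic marker of mesothelial cells, had 78 and 89 counts in H2731 with GSK126 and 51 and 60 in H2731 with DMSO, against 2365 and 2438 in H2810 with GSK126 and 2986 and 3630 in H2810 with DMSO (1.12 ± 0.17). KRT7 (0.41 ± 0.12) lost its call with DESeq2 (adjusted p = 0.0901) and in 8 other alternatives. Epithelial junction genes had 2 higher and 3 lower of 17 (11.8% and 17.6%). The higher were PKP2 (0.54 ± 0.06) of desmosomes and TJP1 (0.49 ± 0.07) of tight junctions. The lower were JUP, CXADR and LSR (-1.01 ± 0.33). LSR, a receptor of tricellular junctions, lost its call in 11 alternatives.

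Interferon-stimulated genes were more often lower than higher in H2731. Interferons signal through JAK kinases to transcription factors that bind the interferon-stimulated response element and switch on antiviral effectors. Of 50 such genes tested, 22 had a lower response in H2731 and 4 a higher one, with a median difference of -0.39. In H2731, 11 of the 50 rose and 6 fell, and in H2810, 40 rose and 5 fell. Of the 22 lower genes, 17 rose in H2810 and were not called in H2731, 4 rose in H2810 and fell in H2731, and 1 rose in both. The summed level of the list was 1423 and 1425 CPM in H2731 with GSK126, 1450 and 1406 CPM in H2731 with DMSO, 11894 and 11881 CPM in H2810 with GSK126 and 8333 and 8250 CPM in H2810 with DMSO.

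OAS3, a sensor of double-stranded RNA, had 849 and 973 counts in H2731 with GSK126 and 1024 and 812 in H2731 with DMSO, against 5787 and 6062 in H2810 with GSK126 and 2694 and 3252 in H2810 with DMSO. The H2731 groups overlap and the H2810 groups do not. Its response was 0.02 ± 0.06 in H2731 and 0.96 ± 0.04 in H2810, a difference of -0.94 ± 0.07 (edgeR adjusted p = 1.53e-08). ISG15, a ubiquitin-like modifier, had 400 and 363 counts in H2731 with GSK126 and 635 and 441 in H2731 with DMSO, against 4372 and 4336 in H2810 with GSK126 and 1983 and 2310 in H2810 with DMSO. It fell in H2731 and rose in H2810 (-1.44 ± 0.10). IFI6, an antiviral membrane protein, differed by -1.29 ± 0.10, and the GTPase MX1 by -1.18 ± 0.15. MX1 had 78 and 75 counts in H2731 with GSK126 and 81 and 66 in H2731 with DMSO, and 5819 and 5785 in H2810 with GSK126 and 2240 and 2458 in H2810 with DMSO. The 4 higher genes were IFIT2 (0.94 ± 0.14), HERC5 (0.91 ± 0.10), IRF1 (0.42 ± 0.09) and GBP4 (1.17 ± 0.36). IFIT2, which binds viral RNA, had 89 and 91 counts in H2731 with GSK126 and 56 and 50 in H2731 with DMSO, against 4912 and 5168 in H2810 with GSK126 and 4943 and 5916 in H2810 with DMSO. GBP4 lost its call with DESeq2 and in 10 other alternatives.

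The promoters of ISG15 and IFI6 are shown for the response element, searched as GAAA and GAAA with any 2 bases between them, or TTTC and TTTC likewise on the other strand, and printed in capitals. They are from RefSeq (GRCh38.p14) and cover the 250 bases before the start, with ISG15 at chr1:1013247-1013496 on the plus strand and IFI6 at chr1:27672193-27672442 on the minus strand.
ISG15: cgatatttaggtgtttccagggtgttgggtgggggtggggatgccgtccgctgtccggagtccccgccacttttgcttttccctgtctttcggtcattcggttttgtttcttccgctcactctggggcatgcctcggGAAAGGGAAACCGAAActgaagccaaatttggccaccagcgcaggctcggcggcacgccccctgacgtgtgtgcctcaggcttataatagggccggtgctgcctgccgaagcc
IFI6: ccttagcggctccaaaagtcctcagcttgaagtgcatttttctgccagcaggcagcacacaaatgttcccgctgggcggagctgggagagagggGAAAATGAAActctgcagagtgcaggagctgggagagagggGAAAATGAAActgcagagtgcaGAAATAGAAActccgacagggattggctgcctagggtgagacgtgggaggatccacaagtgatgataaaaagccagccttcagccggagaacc
ISG15 holds 2 overlapping matches and IFI6 3. Counting a match in any listed window of a gene, the element was present in 4.07% of all tested genes with an entry. It was present in 4.40% of those called higher and 6.22% of those called lower. Of the interferon-stimulated genes it was in 12 of 16 called lower (75%), beside 28 of 37 tested (75.7%), so the called genes did not stand apart from the list in these letters.

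Genes that load and present peptides on MHC class I, many of which interferon raises, followed in part. Of 21 antigen presentation genes tested, 8 had a lower response in H2731 and 1 a higher one, with a median difference of -0.19. B2M, the light chain of class I molecules, had 10406 and 10676 counts in H2731 with GSK126 and 10783 and 9486 in H2731 with DMSO, against 54959 and 57076 in H2810 with GSK126 and 35618 and 42240 in H2810 with DMSO (-0.40 ± 0.04). The peptide transporters TAP1 (-0.50 ± 0.06) and TAP2 (-0.47 ± 0.09) and the immunoproteasome subunit PSMB8 (-0.42 ± 0.07) were lower too. The peptide trimmer ERAP1 (0.29 ± 0.07) was the higher gene and was not called in 3 of the alternatives. After the correction for GC content and length, 5 members were called lower.

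Of 40 proliferation genes tested, 21 had a lower response in H2731 and 6 a higher one, with a median difference of -0.25. In H2731, 2 rose and 8 fell, and in H2810, 22 rose and 8 fell. The 21 lower genes act at the start of S phase or in DNA replication, and include the helicase subunits MCM2 (-0.57 ± 0.06), MCM4 (-0.63 ± 0.06) and MCM5 (-0.51 ± 0.08), the helicase loader CDC6 (-0.73 ± 0.06) and the flap nuclease FEN1 (-0.64 ± 0.07). CDC6 had 2715 and 2794 counts in H2731 with GSK126 and 3010 and 2642 in H2731 with DMSO, against 1602 and 1625 in H2810 with GSK126 and 880 and 1026 in H2810 with DMSO. UHRF1, which brings DNA methyltransferase to replicating DNA, had 2519 and 2608 counts in H2731 with GSK126 and 3262 and 2741 in H2731 with DMSO, against 563 and 636 in H2810 with GSK126 and 300 and 394 in H2810 with DMSO (-0.95 ± 0.08). In both genes the H2810 libraries were higher with GSK126. The 6 higher genes act in mitosis: the cyclins CCNB1 (0.25 ± 0.05) and CCNB2 (0.38 ± 0.07), the kinases PLK1 (0.22 ± 0.06) and AURKA (0.24 ± 0.06), the kinesin KIF20A (0.27 ± 0.06) and the anaphase activator CDC20 (0.22 ± 0.06). All 6 fell in H2810. PLK1, AURKA and CDC20 each lost the call in some alternatives, with adjusted p up to 0.129. These roles were assigned after the values were seen and only to the 27 genes called. The 13 not called, which include the replication factor CDT1 (-0.26) and the mitotic genes CENPF (0.24) and AURKB (-0.02), belong to both kinds, so no test of the phases was made.

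UHRF1 is shown for the letters TTTNNCGC, or GCGNNAAA on the other strand, which E2F factors bind at the onset of S phase. The 250 bases before its first listed start are from RefSeq (GRCh38.p14, chr19:4909251-4909500, plus strand), with the matches in capitals.
UHRF1: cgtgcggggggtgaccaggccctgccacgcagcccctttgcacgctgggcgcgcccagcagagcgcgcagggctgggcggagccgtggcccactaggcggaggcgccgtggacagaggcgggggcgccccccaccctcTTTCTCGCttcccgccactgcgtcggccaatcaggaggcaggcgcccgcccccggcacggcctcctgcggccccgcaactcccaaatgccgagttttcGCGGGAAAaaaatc
This stretch holds 2 matches, and the same length before 2 other listed starts of UHRF1 holds 1 and 0. The stretches before CDC6 and FEN1, named above, hold none. Counting a match in any listed window of a gene, the letters occurred in 12.6% of all tested genes with an entry. They occurred in 10 of 16 proliferation genes called lower (62.5%), none of 5 called higher and 13 of 32 tested (40.6%). A shared search for the sterol element, as TCACNCCAC or GTGGNGTGA, found it in 1.43% of all tested genes with an entry. It was in none of the 15 sterol genes called higher with an entry.

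**Figure D3:**
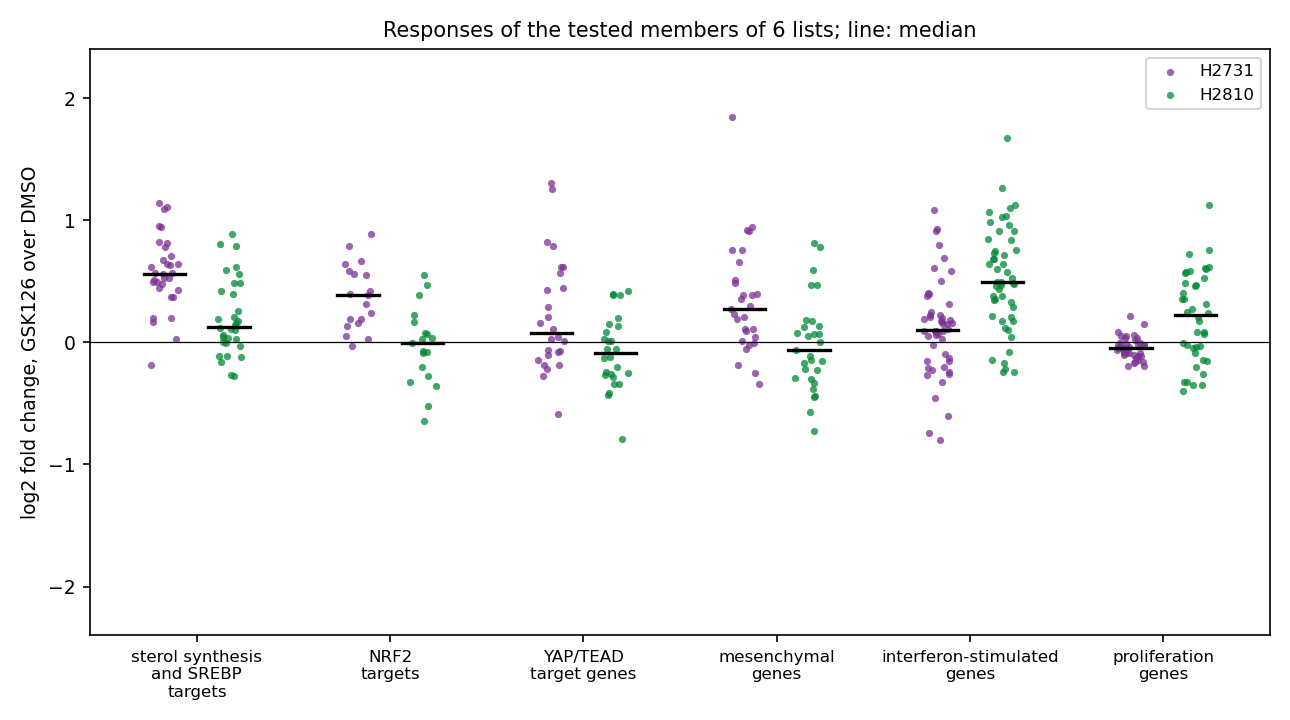
Log2 fold change with GSK126 over DMSO (vertical axis) of the tested members of 6 gene lists, 1 point per gene, with H2731 left of H2810 and the median as a line. The medians are 0.56 in H2731 and 0.13 in H2810 for sterol genes, 0.39 and -0.0046 for NRF2 targets, 0.08 and -0.09 for YAP/TEAD targets, 0.28 and -0.06 for mesenchymal genes, 0.10 and 0.49 for interferon-stimulated genes, and -0.05 and 0.22 for proliferation genes, H2731 before H2810 in each pair.

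Of the Polycomb genes, 1 was higher and 1 lower of 12 for PRC2, 2 higher and 4 lower of 20 for PRC1, and none for PR-DUB. The PRC2 shares, 8.33% in each direction, were near the 8.08% higher and 6.66% lower over all genes tested. For PRC1 the shares were 10% and 20%. BAP1 (ENSG00000163930, chromosome 3, 52401008 to 52410008) had 1295 and 1342 counts in H2731 with GSK126 and 1619 and 1362 in H2731 with DMSO, against 2751 and 2767 in H2810 with GSK126 and 2593 and 2951 in H2810 with DMSO. It fell by 0.14 on the log2 scale in H2731 and was not called in H2810, but the difference of -0.10 ± 0.06 was not called (edgeR adjusted p = 0.303). The sources used here do not give the type of BAP1 mutation in H2731, so the transcript level checks the label only in part. None of 10 PR-DUB genes was called by edgeR or DESeq2, 1 had an unadjusted p under 0.05, and at most 1 was called in each direction under the other alternatives. EZH2, the target of the drug, had 1606 and 1630 counts in H2731 with GSK126 and 1866 and 1555 in H2731 with DMSO, against 744 and 775 in H2810 with GSK126 and 586 and 673 in H2810 with DMSO. Its difference was -0.28 ± 0.07 (edgeR adjusted p = 0.00989), but it was not called with DESeq2 (adjusted p = 0.0903) or without H2810 GSK126 replicate 2 (0.0528). PHF19, which guides PRC2 to chromatin, was the other PRC2 gene called of 12 (0.39 ± 0.06). Of 20 PRC1 genes, BMI1 (0.50 ± 0.11) and PCGF5 (0.41 ± 0.06) were higher, and 4 were lower, among them CBX2 (-0.49 ± 0.09), CBX6 (-0.28 ± 0.06) and PHC2 (-0.18 ± 0.06). PHC2 lost its call in 11 alternatives.

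HOX genes, classical PRC2 targets that set position along the body axis, had 6 higher and none lower of 31 tested. The shares were 19.4% and 0%, beside 8.08% and 6.66% over all genes tested, and the median difference was 0.25. HOXB9 had 521 and 534 counts in H2731 with GSK126 and 236 and 228 in H2731 with DMSO, against 722 and 691 in H2810 with GSK126 and 448 and 534 in H2810 with DMSO (0.73 ± 0.10). It was called in every alternative. The other 5, HOXA3, HOXB2, HOXB4, HOXC4 and HOXC13, each lost the call in 5 or 6 alternatives, and the count fell to 1 in the lowest of them. Developmental transcription factors outside the HOX clusters had 10 higher and 11 lower of 78. These were 12.8% and 14.1%, beside 8.08% and 6.66% over all genes tested. NR2F1, an orphan nuclear receptor, had 149 and 146 counts in H2731 with GSK126 and 79 and 65 in H2731 with DMSO, against 1724 and 1734 in H2810 with GSK126 and 2178 and 2540 in H2810 with DMSO (1.55 ± 0.13). The homeobox neighbours DLX1 (-1.09 ± 0.13) and DLX2 (-1.16 ± 0.22) were both lower, and GATA6 (0.96 ± 0.10), a mesoderm and endoderm factor, and EYA4 (0.68 ± 0.07) were higher.

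Among 12 FGF genes, 1 was called higher and 1 lower, 8.33% in each direction beside 8.08% and 6.66% over all genes. FGF2, a fibroblast growth factor, had 2310 and 2524 counts in H2731 with GSK126 and 1906 and 1736 in H2731 with DMSO, against 3405 and 3551 in H2810 with GSK126 and 4586 and 5354 in H2810 with DMSO (0.99 ± 0.06). The receptor FGFR1 went the other way, with 3532 and 3524 counts in H2731 with GSK126 and 4082 and 3400 in H2731 with DMSO, and 2880 and 2966 in H2810 with GSK126 and 2174 and 2601 in H2810 with DMSO (-0.31 ± 0.05, edgeR adjusted p = 0.000505). FGFR3 (-0.33 ± 0.15), FGFR4 (-0.01 ± 0.12) and FGFR2, which had 1 or 2 counts in each library of H2810, were not called. Of 37 other receptor tyrosine kinases and their ligands, 8 were higher and 8 lower, 21.6% in each direction beside the same 8.08% and 6.66%. The higher ones included the receptor MET (0.69 ± 0.06) and the ligands NRG1 (0.93 ± 0.10) and KITLG (0.57 ± 0.07), and the lower ones the ligands PDGFD (-0.97 ± 0.08) and VEGFA (-0.40 ± 0.08). PDGFD had 561 and 565 counts in H2731 with GSK126 and 466 and 414 in H2731 with DMSO, against 2191 and 2199 in H2810 with GSK126 and 739 and 931 in H2810 with DMSO. MAPK output genes had 4 higher and 4 lower of 24 (16.7% in each direction), but 1 to 6 higher over the alternatives (1 with DESeq2). The cyclin CCND1 (-0.57 ± 0.05) and the AP-1 subunit FOSL1 (-0.38 ± 0.06) were lower. The ephrin receptor EPHA2 (0.48 ± 0.05) was higher but fell in both lines, with responses of -0.31 in H2731 and -0.79 in H2810.

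Semaphorins and their receptors had 8 higher and 6 lower of 29 (27.6% and 20.7%), beside 8.08% higher and 6.66% lower over all genes tested. The secreted SEMA3C and its receptor NRP2 (0.94 ± 0.09) were higher, and SEMA6B (-1.05 ± 0.11) and PLXND1 (-0.61 ± 0.07) were lower. In the TGF-beta and BMP list, 3 genes were higher and 5 lower of 29 (10.3% and 17.2%). The higher ones included TGFB2 and LTBP1 (0.74 ± 0.11), which holds latent TGF-beta in the matrix. The 5 lower ones were the metalloprotease BMP1 and the 4 ID genes, transcriptional inhibitors that BMP signals raise. ID2 had 2990 and 3055 counts in H2731 with GSK126 and 2888 and 2727 in H2731 with DMSO, against 476 and 467 in H2810 with GSK126 and 247 and 292 in H2810 with DMSO (-0.63 ± 0.09). ID1 (-0.37 ± 0.07) and ID3 (-0.28 ± 0.05) differed less than ID4 (-1.72 ± 0.14). Among WNT genes, 3 were higher and 2 lower of 22 (13.6% and 9.09%). The antagonists SFRP4 (0.93 ± 0.20) and DKK3 (0.82 ± 0.05) were higher and SFRP1 (-1.11 ± 0.13) lower.

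Inflammatory and stress lists had calls in both directions. Over all genes tested, 8.08% were called higher and 6.66% lower. Among 27 cytokine and feedback genes of NF-kB, 5 were higher and 3 lower. TNFAIP3, which switches NF-kB off, had 350 and 338 counts in H2731 with GSK126 and 339 and 275 in H2731 with DMSO, against 2266 and 2317 in H2810 with GSK126 and 3798 and 4307 in H2810 with DMSO (1.06 ± 0.08). BIRC3, an inhibitor of cell death (1.04 ± 0.07), and the chemokine CXCL8 (2.49 ± 0.51) were also higher. TNFAIP3 fell in H2810 and was not called in H2731, while BIRC3 rose in H2731 and fell in H2810. CXCL8 rose in H2731 and was not called in H2810. The H2731 libraries of CXCL8 held 4 to 22 counts, and DESeq2 gave it no adjusted p. ICAM1 (-0.53 ± 0.07), LIF (-1.15 ± 0.30) and TNFAIP2 (-0.56 ± 0.16) were lower, but LIF lost the call without H2810 GSK126 replicate 2 or H2810 DMSO replicate 2, and TNFAIP2 without any of the 4 libraries of H2810. Complement and acute-phase genes had 4 higher and 2 lower of 16, with the inhibitor CD55 (0.92 ± 0.06) higher and the protease C1R (-0.66 ± 0.06) lower. The 2 lower genes, C1R and C1S, rose in both lines but more in H2810. ATF4 and unfolded protein genes had 8 higher and 2 lower of 30, hypoxia and glycolysis genes 7 higher and 4 lower of 32, and p53 targets and CDK inhibitors 4 higher and 1 lower of 27. These counts were not steady. The higher ATF4 genes numbered 4 with DESeq2 or without H2810 GSK126 replicate 1, the higher hypoxia genes 3 without H2810 GSK126 replicate 2, and the higher p53 genes 2 with DESeq2. DESeq2 also called 2 NF-kB genes higher, and 1 was lower without H2810 GSK126 replicate 2 or H2810 DMSO replicate 2. Neuronal genes had 4 higher and 2 lower of 34 (11.8% and 5.88%). Metallothioneins had 1 lower of 6, and fibroblast markers 1 in each direction of 11 (9.09%). The neuronal and fibroblast shares were near those over all genes tested. None of the 5 cancer-testis genes, 6 leukocyte markers or 6 endothelial markers tested was called by edgeR or DESeq2, and at an unadjusted p under 0.05 the count was 0, 2 and 0. Wherever a list above had no member called in a direction, apart from those of PR-DUB and leukocyte markers, none had an unadjusted p under 0.05 in that direction either, and DESeq2 called none in the lists it was counted for.

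**Figure D4:**
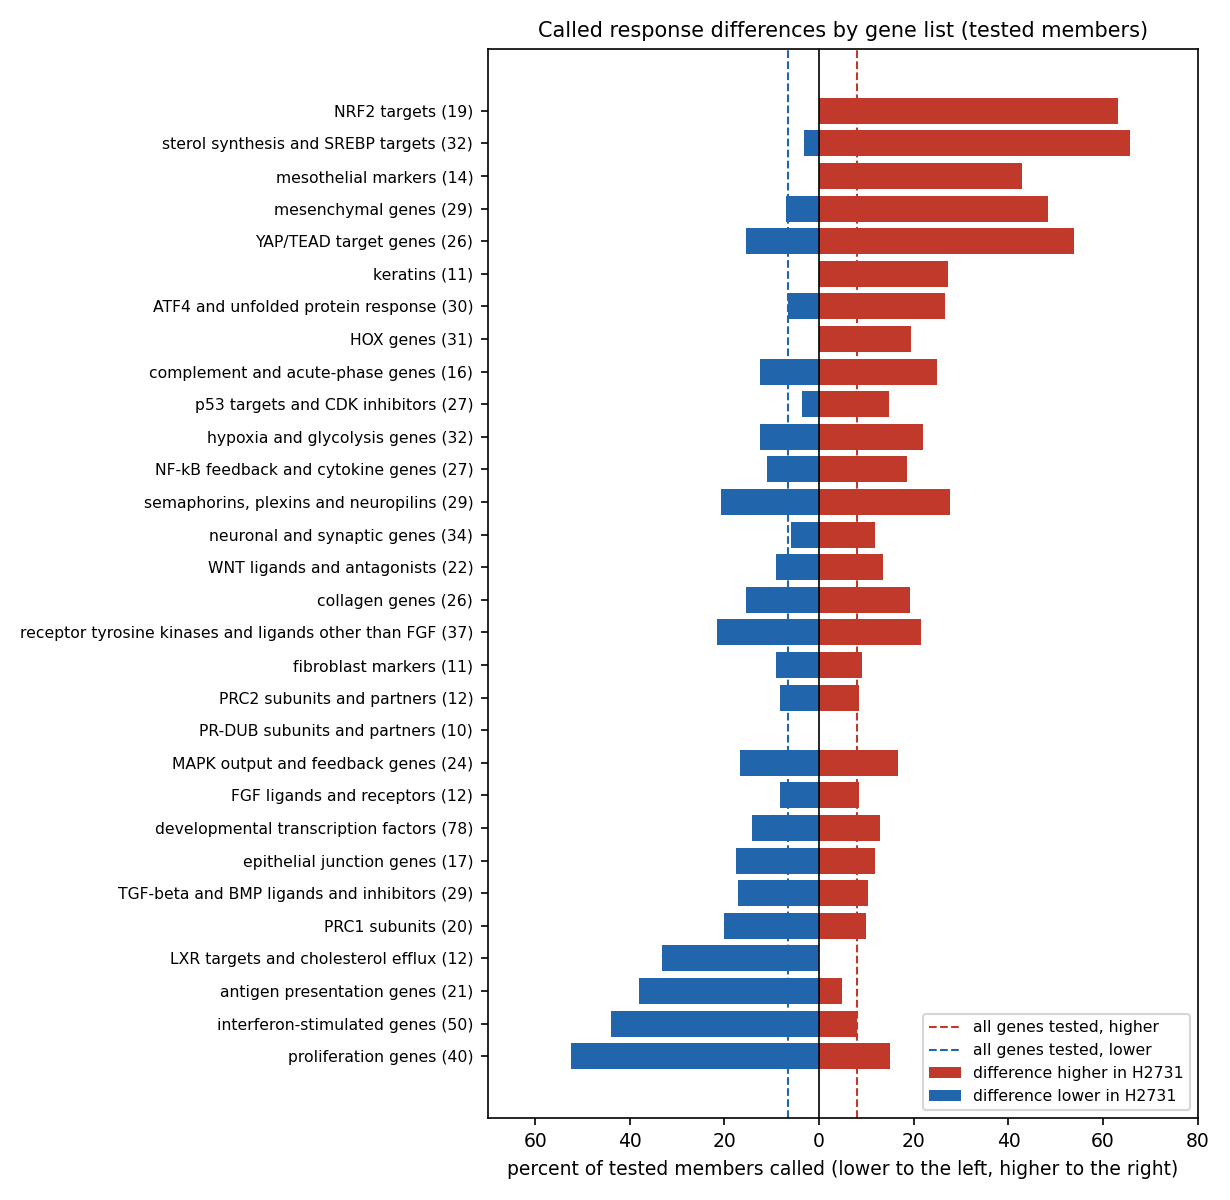
Percent of the tested members of each gene list called higher (red, to the right) and lower (blue, to the left) in H2731, with the number tested in parentheses and dashed lines at 8.08% and 6.66%, the shares over all genes tested. Sterol synthesis, NRF2 targets and YAP/TEAD targets extend furthest to the right, and proliferation, interferon-stimulated and antigen presentation genes furthest to the left.

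The genes called higher and those called lower stood on opposite sides of all genes in baseline level and base composition. Under DMSO, the median log2 ratio of H2731 over H2810 was -0.80 for the genes called higher, 0.72 for those called lower and 0.02 for all tested. The DMSO libraries enter both that ratio and the difference, so it is given as a description. The median GC content of the transcripts was 46.0% for genes called higher, 54.7% for those called lower and 49.3% for all tested with a value. In 5 equal bins of the tested genes from low to high GC, 10.8%, 11.4%, 8.68%, 6.27% and 3.35% were called higher and 4.57%, 4.17%, 5.76%, 7.21% and 11.7% lower. The median difference moved from 0.03 in the lowest bin to -0.09 in the highest. By chromosome, the share called higher lay between 1.68% on chromosome 19 and 12.4% on chromosome 8, whose median GC contents were 58.7% and 46.5%. After a correction for GC content and length within each library, 2387 genes were called, of which 2026 were among the 2358 with the same sign. The part of GC content in single results was otherwise not tested. With the highest promoter window of each gene, the median ratio of observed to expected CpG was 0.88 for genes called higher. It was 0.88 for those called lower and 0.86 for all tested.

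**Figure D5:**
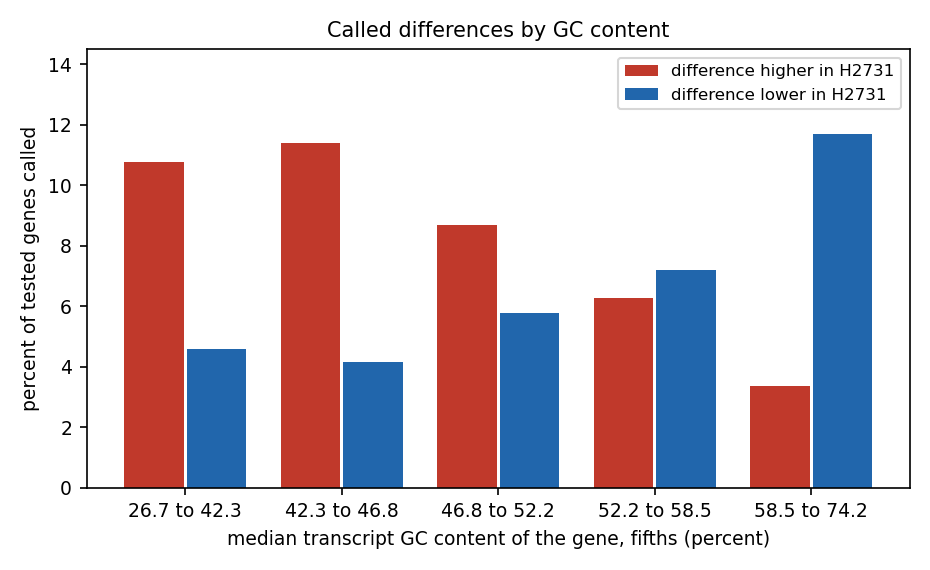
Percent of tested genes called higher (red) and lower (blue) in H2731 in 5 equal bins of transcript GC content (horizontal axis, percent). The share called higher is 10.8% in the lowest bin and 3.35% in the highest, and the share called lower is 4.57% and 11.7%.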

How the data were processed

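Libraries of poly-A RNA, purified with a Qiagen kit, were sequenced from 1 end of each fragment, per the labels' protocols. The values used are raw counts per gene that the authors deposited in 1 table of 8 libraries. The submitters' processing notes name TopHat2 2.0.12, TopHat, HTSeq and DESeq2, without roles. The human genome build, the strand setting and the treatment of reads with several matches are not given in the sources used here; of 60674 gene IDs in the table, 60418 were found in GENCODE v44, and 60416 overlapped the gene of that ID on GRCh38. Coordinates are those of the table.

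Genes were filtered with filterByExpr, scaled with TMM and fitted with edgeR 4.0.16 (R 4.3.3), with a mean for each of 4 groups of 2 libraries and quasi-likelihood tests of the response in each line and of the difference. P-values were adjusted by Benjamini-Hochberg over the 15999 genes tested, with a threshold of 0.05, and the script was tested on simulated data. CPM were computed with the TMM-scaled library totals. Standard errors come from the log2 difference and its F statistic. Alternatives were RLE scaling, other filters, DESeq2 1.42.0, limma-voom (limma 3.58.1), a replicate block, leaving out each library and, chosen after seeing the data, a GC and length correction and a minimum of 10 counts in every library. Intervals cover counting error only, and floors of 3 counts cover only that of the empty group. The library totals of 17927837 to 22927239 set the precision.

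Genes were named by rule: BAP1, EZH2 and FGFR1 to FGFR4; the 15 highest and 15 lowest called differences with a mean of at least 1 log2 CPM and no overlap between the lines' library ratios; under the same limits, the 6 largest of each combination of responses (10 for opposite ones); and up to 4 called members of each gene list by smallest p. Not all are printed, and some genes are not reported here. The lists, the members and the rule were chosen with earlier results of these data known, and some genes, such as the PSG family, were added after their values were seen. Other tables of the series were not used here.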

Additional observations from a re-analysis of the deposited data

Results flagged for a closer look

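All results here were picked out because the test of the difference between the lines was itself passed (edgeR adjusted p under 0.05), as it was for 2358 genes. With 2 libraries per group, no library can be tested as standing apart within its group.

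In 236 genes the response rose in H2731 and fell in H2810. The 10 named by size differed by 5.21 (RGS4), 2.22 (RIPOR2), 2.18 (COL6A3), 2.17 (KLHL4), 2.08 (IL18), 1.85 (PLAT), 1.70 (CPA4), 1.68 (SULF1), 1.64 (SULF2) and 1.62 (SEMA3C) on the log2 scale. RGS4, RIPOR2 and COL6A3 rest on few counts in H2731. With a floor of 3 counts, the RGS4 level in H2731 was 2.39-fold higher with GSK126, which is not a strict bound.

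In 129 genes the response fell in H2731 and rose in H2810. The 10 named by size differed by -3.93 (ABCA1), -2.86 (PLXNB3), -2.20 (RCOR2), -1.93 (ADGRL2), -1.87 (ELFN1), -1.72 (ID4), -1.63 (JUP), -1.52 (SCX), -1.44 (ISG15) and -1.31 (HSPA2). PLXNB3 and RCOR2 had 1 to 10 counts in the libraries of H2810 with DMSO.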

How the results depend on the processing

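The count of 2358 was 2369 with RLE scaling, 2354 without a filter on low counts, 2415 with a stricter filter, 2267 with limma-voom, 2387 with the GC and length correction and 2384 with at least 10 counts in every library, of which 2342, 2199, 2311, 2200, 2026 and 2261 were shared with the same sign. DESeq2 called 1401, with 821 higher and 580 lower, 81 lower by at least 1, 1391 rises and 732 falls in H2731, 1570 rises and 1213 falls in H2810, 139 genes with a rise in H2731 and a fall in H2810 and 36 with the opposite. With at least 10 counts in every library, 89 were lower by at least 1. Leaving out 1 library gave 1688 to 2269 calls, 894 to 1312 higher and 765 to 1009 lower, 105 to 136 higher and 122 to 148 lower by at least 1, 1492 to 2336 rises and 846 to 1948 falls in H2731, 1866 to 2711 rises and 1284 to 2124 falls in H2810, 164 to 258 genes with a rise in H2731 and a fall in H2810, and 65 to 121 with the opposite. A test with 1 library left in a group assumes that it varies like the others.

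With the replicate number as a block, 2680 genes were called (2357 shared), and with a block within each line 2673 (2356 shared). The labels give no shared origin for a number, and the residuals of libraries with the same number correlated by -0.00678 to 0.1. With 2 libraries per group, these values cannot settle whether libraries with the same number share an origin.

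Over the named genes, 3366 recomputed values kept direction and call, 355 kept direction and lost the call, and 8 changed sign, none of them called. These were FGFR2 at 0.07, 0.18, 0.50 and 0.45 (range with 1 library left out -0.68 to 0.50) without H2731 GSK126 replicate 1, H2731 DMSO replicate 2, H2810 GSK126 replicate 1 and H2810 DMSO replicate 2, and FGFR4 at 0.01, 0.04 and 0.054 (range -0.074 to 0.054) without H2731 GSK126 replicate 2, H2731 DMSO replicate 1 and H2810 GSK126 replicate 2 and 0.11 after the GC correction. The cause was not tested. Depth limits the genes with under 10 counts in some library.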

Other observations

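Of 30 ATF4 and unfolded protein genes tested, 8 were called higher and 2 lower. These were 26.7% and 6.67%, beside 8.08% and 6.66% over all genes tested. The higher ones were ATF4, DNAJB9, HERPUD1, MTHFD2, PHGDH, PSAT1, PSPH and SLC7A11, and the lower ones NUPR1 and SLC3A2. ATF4, the factor that cells make more of under amino acid or endoplasmic reticulum stress, had 6150 and 6147 counts in H2731 with GSK126 and 6494 and 5429 in H2731 with DMSO, against 3287 and 3425 in H2810 with GSK126 and 3462 and 4019 in H2810 with DMSO (difference 0.27 ± 0.05, edgeR adjusted p = 0.000835). SLC7A11, the cystine carrier, had 13145 and 14914 counts in H2731 with GSK126 and 11517 and 10358 in H2731 with DMSO, against 9206 and 9597 in H2810 with GSK126 and 7937 and 10085 in H2810 with DMSO (0.36 ± 0.06). SLC3A2, the heavy chain with which that carrier pairs, had 7957 and 7923 counts in H2731 with GSK126 and 8554 and 6966 in H2731 with DMSO, against 5067 and 5100 in H2810 with GSK126 and 3493 and 4043 in H2810 with DMSO (-0.33 ± 0.05). SLC7A11 rose in H2731 and SLC3A2 in H2810, and both kept their calls in all 17 alternatives run. The endoplasmic reticulum protein HERPUD1 rose in H2731 and fell in H2810, with a difference of 0.52 ± 0.07.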
